A study of Homo sapiens with 6 samples.

Results

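Integrins are the receptors through which fibroblasts hold on to collagen, laminin and fibronectin. Each receptor pairs 1 alpha with 1 beta subunit at the cell surface, binds matrix outside the cell, and links through talin, kindlin and their adaptors to actin inside it. The alpha subunit largely sets which ligand is bound. In the inflamed joint, synovial fibroblasts use these receptors to attach to and invade cartilage, and receptors built on the alpha V subunit also release TGF-beta from its latent complex. The genes described are 10 integrin subunits known in synovial fibroblasts: ITGA2, ITGA3, ITGA4, ITGA5, ITGA11, ITGAV, ITGB1, ITGB3, ITGB5 and ITGB8. They were taken by gene symbol. All 10 were found among the 19475 symbols of the mRNA count table, which holds 26 integrin subunits in all.

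The RNA libraries were made from MH7A, an immortalised synovial fibroblast line from a patient with rheumatoid arthritis, and transcripts were counted per gene. All 6 libraries came from cells given 10 ng/ml TNF-alpha, a cytokine of the inflamed joint. In the TNF group (replicates 2, 8 and 14) this was the only treatment, and in the LED group (replicates 4, 6 and 10) cells also received 630 nm red LED light for 15 min, 3 times. The comparison asks what differed with light in cells exposed to TNF-alpha. Cells without TNF-alpha or with light alone were not analysed here, so every level below is a level under TNF-alpha, in 1 cell line. Values per library are listed in the order given here. A difference between the groups cannot be told apart from any other difference in handling that went with the lamp, such as warming.

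The deposited totals were 86000253 to 108074289 estimated counts per library, with 14079 to 14943 genes above 0. TNF replicate 8 stood apart: 39.4% of the 13794 genes tested differed there by more than 0.5 on the log2 scale from the mean of the other TNF libraries, against 11.8% to 26.6% for the other 5 libraries. Of the 10 integrin subunits, 7 differed by that much in TNF replicate 8 and none in any LED library. Values without that library are given beside those of the 10 subunits and the alpha to beta partner ratios in which it was the highest or lowest of the 6. Of 12 synovial fibroblast markers, 11 were above the detection floor, PRG4 being the exception. Their summed level was 30126 to 32576 CPM (estimated counts scaled to the library total) with TNF and 25010 to 27978 with LED. Of 10 leukocyte markers CD3E, ITGB2 and ITGAL were at 0 in every library, and CD68 made up nearly all of their sum (97.2 to 138 CPM with TNF, 117 to 145 with LED). CSF1R had 0.532 to 1.695 CPM, CD14 0.157 to 0.846 and CD79A at most 0.565. PTPRC, LYZ and ITGAM had at most 0.134 CPM. The endothelial marker CDH5 was at 0 throughout, while TEK had 76.9 to 113 CPM with TNF and 52.8 to 76.7 with LED. Of the other endothelial markers KDR had 3.48 to 9.41 CPM and VWF 0.372 to 1.795 over all libraries. PECAM1 was above 0 only in TNF replicate 2 (0.121 CPM). The 4 epithelial markers were at or under the floor. Among the 3 platelet markers GP9 was at 0, PF4 had 0.0779 to 0.4535 CPM over all libraries and ITGA2B had at most 0.2498 CPM. The part of CD68, TEK and PF4 in any result was not tested.

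With LED light, ITGB8 rose and ITGB3 fell, and the other 8 subunits did not pass the test. ITGB8, the beta subunit of a TGF-beta activating receptor, was 9.82-fold higher on average, from a very low level. ITGB3, the beta subunit of the vitronectin receptor, was 2.07-fold lower. In edgeR's quasi-likelihood test over 13794 genes, 2 of 10 subunits were called at an adjusted p below 0.05, where 5.17% of all genes were (2.44% higher and 2.73% lower). The log2 fold change was below 0 for 8 of the 10, against 49.2% of all genes, and their median was -0.34 against 0.01. For 7 of the 10 the values of the 3 LED libraries did not overlap those of the 3 TNF libraries (6 lower and 1 higher), which held for 32.4% of all genes. Leaving out TNF replicate 14 or LED replicate 6 left no subunit called (0.804% and 0.574% of all genes were), and leaving out LED replicate 4 or 10 left only ITGB8 (0.83% and 1.56%). Both calls were kept after TNF replicate 8 was left out (3.85% of all genes called) and after TNF replicate 2 was, which added ITGA5 (5.25%). ITGA5 was also added with no filter on low counts (5.07%) and with counts divided by 4 (6.39%). With limma-voom only ITGB8 was called (4.65%). DESeq2 added ITGA3 and ITGA5 (12.7%), and leaving out TNF replicate 8 and LED replicate 6 together added ITGA3, ITGA4 and ITGA5 (12%). At an unadjusted p below 0.05 there were 4 subunits lower (ITGA3, ITGA4, ITGA5 and ITGB3, against 11.8% of all genes) and 1 higher (against 10.9%). Separate groups were found in each direction for 16.2% of all genes.

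**Figure D1:**
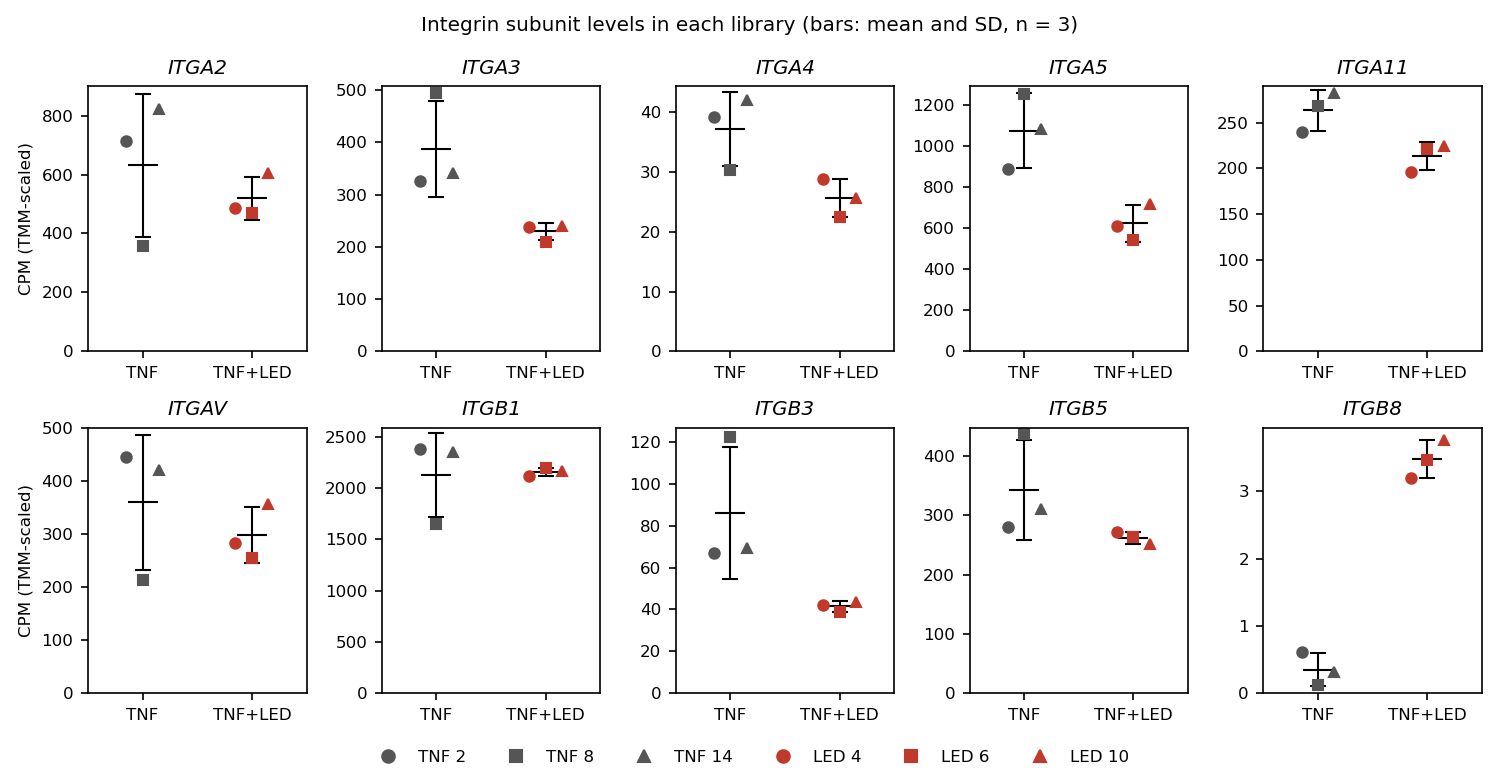
Level of each of the 10 integrin subunits in every library, in CPM scaled by TMM, on linear axes from 0; each point is a library and the bars give mean and SD (n = 3). ITGB8 sits below 0.7 CPM in the TNF libraries and above 3 CPM with LED, ITGB3 is highest in TNF replicate 8, and ITGB1 has a similar mean in both groups.

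ITGB1 encodes the beta 1 subunit, the shared partner of most matrix-binding alpha chains. Its level with TNF was 2381, 1651 and 2350 CPM, and 2113, 2193 and 2165 CPM with LED (CPM scaled by TMM here and below). The LED libraries lay within the range of the TNF libraries, and TNF replicate 8 was the lowest of the 6. The log2 fold change was 0.02 ± 0.19 (SE, edgeR adjusted p = 0.965), with a 95% confidence interval of -0.41 to 0.45. Its sign turned without TNF replicate 8 (-0.13) and with library totals as the only scaling (-0.02), and neither passed. Per kb of exon it was the highest subunit in all 6 libraries, at 420 to 606 CPM per kb.

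ITGA2 and ITGA11 encode the collagen-binding chains alpha 2 and alpha 11, and both pair with beta 1. ITGA2 had 714, 357 and 822 CPM with TNF and 486, 469 and 604 with LED. The groups overlapped, because TNF replicate 8 was below every LED library and the other TNF libraries were above every one. Its log2 fold change was -0.28 ± 0.29 (edgeR adjusted p = 0.613, 95% interval -0.93 to 0.36), and -0.56 without TNF replicate 8 (adjusted p = 0.102). ITGA11, a receptor for fibrillar collagen that is typical of fibroblasts, had 239, 268 and 283 CPM with TNF and 196, 221 and 224 with LED. All LED libraries were below all TNF libraries, but the log2 fold change of -0.30 ± 0.16 did not pass (edgeR adjusted p = 0.305). ITGA11 varied least among the TNF libraries, with an SD of 8.39% of the mean, against 38.5% for ITGA2.

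ITGA3 encodes alpha 3, the main laminin-binding chain among the 10. It had 327, 494 and 341 CPM with TNF and 239, 210 and 240 with LED, or 387 ± 92.5 against 230 ± 16.8 (SD, n = 3 each). Every LED library was below every TNF library, and TNF replicate 8 was the highest. The log2 fold change of -0.75 ± 0.20 did not pass in edgeR (adjusted p = 0.0619) and did in DESeq2 (adjusted p = 0.00897). Without TNF replicate 8 it was -0.54 (adjusted p = 0.0650).

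ITGA5 and ITGA4 encode the fibronectin-binding chains alpha 5 and alpha 4. Alpha 5 with beta 1 is the classic fibronectin receptor, which reads the RGD site, and alpha 4 with beta 1 binds another stretch of fibronectin and VCAM1. ITGA5 had 890, 1253 and 1082 CPM with TNF and 609, 542 and 720 with LED. The groups did not overlap, with means of 1075 ± 182 and 624 ± 89.9 CPM, and TNF replicate 8 was again the highest. At a log2 fold change of -0.79 ± 0.20 it missed the threshold in edgeR (adjusted p = 0.0518, 95% interval -1.23 to -0.34). It passed in DESeq2 (0.00392), and in edgeR with no filter on low counts (adjusted p = 0.0478), with counts divided by 4 (0.0488) and without TNF replicate 2 (0.0438). Without TNF replicate 8 the log2 fold change was -0.66 (0.0835), and the adjusted p reached 0.189 in the other omissions of 1 library. ITGA4, at a much lower level, had 39.2, 30.3 and 42.0 CPM with TNF and 28.8, 22.5 and 25.6 with LED. These groups did not overlap either, and the log2 fold change of -0.54 ± 0.19 did not pass (edgeR adjusted p = 0.132). Fibronectin itself, FN1, had a log2 fold change of -0.07 ± 0.17 (edgeR adjusted p = 0.858), and FN1 was named after its value was seen.

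ITGAV encodes alpha V, which pairs with beta 1, beta 3, beta 5 and beta 8 to bind vitronectin, fibronectin and latent TGF-beta. It had 445, 214 and 420 CPM with TNF and 284, 256 and 357 with LED. As for ITGA2, TNF replicate 8 was the lowest of all 6 libraries and the other TNF libraries were the highest. The log2 fold change was -0.27 ± 0.28 (edgeR adjusted p = 0.614, 95% interval -0.89 to 0.35), and -0.54 without TNF replicate 8 (adjusted p = 0.119).

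ITGB3 had 66.7, 122 and 69.1 CPM with TNF and 42.2, 38.8 and 43.6 with LED. All LED libraries were below all TNF libraries, and TNF replicate 8 was far above the other TNF libraries. It fell by 1.05 ± 0.25 on the log2 scale (SE, edgeR adjusted p = 0.0455). Without TNF replicate 8 the log2 fold change was -0.71 and the call held (0.0336), as it did without TNF replicate 2 (0.0328). It missed the threshold when TNF replicate 14 was left out (0.0820), when LED replicate 4, 6 or 10 was (0.139, 0.171 and 0.0973), and in limma-voom (0.0505). ITGB5, whose receptor with alpha V binds vitronectin and takes part in its uptake, had 280, 438 and 310 CPM with TNF and 272, 263 and 251 with LED. The groups were separate by a narrow margin, and the log2 fold change of -0.39 ± 0.20 did not pass (edgeR adjusted p = 0.290). It was -0.17 without TNF replicate 8.

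ITGB8 encodes beta 8, which pairs only with alpha V, binds latent TGF-beta and lacks the talin-binding tail motifs of the other beta chains. It had 0.610, 0.128 and 0.323 CPM with TNF and 3.19, 3.47 and 3.75 with LED. The LED libraries lay close together, and each was far above the highest TNF library. It rose by 3.28 ± 0.50 on the log2 scale (SE, edgeR adjusted p = 0.0122, 95% interval 2.15 to 4.41). The TNF level rested on few reads. The deposited counts of 68, 13 and 28 correspond to about 17, 3 and 7 sequenced fragments, since 1 fragment appeared as about 4 units, against about 84, 87 and 90 with LED. TNF replicate 8 was thus at the detection floor of 3 fragments. Pooled over libraries, 27 fragments with TNF and 261 with LED gave a ratio of 9.57 (Clopper-Pearson 95% interval 6.42 to 14.8, for counting error only). ITGB8 missed the threshold when TNF replicate 14 (0.0542) or LED replicate 6 (0.0732) was left out. Without TNF replicate 8, the lowest, its log2 fold change was 2.88 (0.0188), and it stayed between 2.88 and 3.93 in all 15 alternatives.

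The stretches of DNA before the RefSeq starts are shown for ITGB8, which rose, for ITGA5, the highest alpha chain per kb, and for ITGB1, the partner whose mean was alike in both groups. They come from RefSeq's GRCh38.p14 promoter table, are cut where any annotated exon begins, and run 5′ to 3′ on the gene's strand. Capitals mark GGGCGG, the GC box bound by SP factors, on either strand, and GGAATG, the core bound by TEAD factors.
ITGB8 (chr7:20330650-20330701, plus strand): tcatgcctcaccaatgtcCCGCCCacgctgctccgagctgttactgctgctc
ITGA5 (chr12:54419461-54419516, minus strand): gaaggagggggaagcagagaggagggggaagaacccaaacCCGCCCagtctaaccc
ITGB1 (chr10:32958233-32958480, minus strand): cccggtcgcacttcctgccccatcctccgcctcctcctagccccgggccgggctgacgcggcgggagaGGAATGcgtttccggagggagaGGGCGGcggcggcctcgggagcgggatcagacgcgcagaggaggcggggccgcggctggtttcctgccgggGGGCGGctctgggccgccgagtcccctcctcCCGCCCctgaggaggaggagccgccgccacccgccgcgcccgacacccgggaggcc
The table matched 8 of the 10 subunits, all but ITGA3 and ITGB3, and was searched on both strands over the 250 bases before each start. GGGCGG was found for 5 of the 8 (ITGA2, ITGA5, ITGB1, ITGB5 and ITGB8) and in 42.6% of all 35114 windows of that length. GGAATG was found for ITGA5 and ITGB1 and in 11.9% of windows, and in ITGA5 it lies outside the stretch shown. ITGB8 has a second GGGCGG match, 49 bases before the start, that also lies outside its stretch. The stretches for ITGB8, ITGA5 and ITGB1 have 52, 56 and 248 bases, so matches in them cannot be compared by number. The heat shock element (GAANNTTC or TTCNNGAA, in 11.6% of windows) and the AP-1 site TGANTCA (6.57%) were found for none of the 8. The same held for 1 pattern of the NF-kB site (1.73%) and for 2 exact spellings of the CArG box (0.0627%). Other forms of the NF-kB site and the CArG box were not searched for. Their absence from the 8, and how common they are among all windows, is therefore not known. ITGAV, ITGB1 and ITGB5 have more than 1 window each. A subunit was counted if any of its windows matched, while the shares are per window, so the 2 are not like measures. A match or its absence describes these letters only.

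Levels can be compared between subunits only per length, and were divided by the kb of exon of each gene. By the mean over the 6 libraries the order was ITGB1 (545 CPM per kb), ITGA5 (191), ITGA2 (73.1), ITGB5 (69.1), ITGA3 (63.1), ITGAV (45.7), ITGA11 (23.4), ITGB3 (14.5), ITGA4 (6.82) and ITGB8 (0.207). The ranges over the 6 libraries did not overlap between ITGB1 and ITGA5, between ITGA5 and ITGA2, between ITGAV and ITGA11 or between ITGA4 and ITGB8. Neighbours among ITGA2, ITGB5, ITGA3 and ITGAV overlapped, as did ITGA11 with ITGB3 and ITGB3 with ITGA4. The 10 subunits made up 95.7% to 96.7% of the summed level per kb of all 26 integrin genes.

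**Figure D2:**
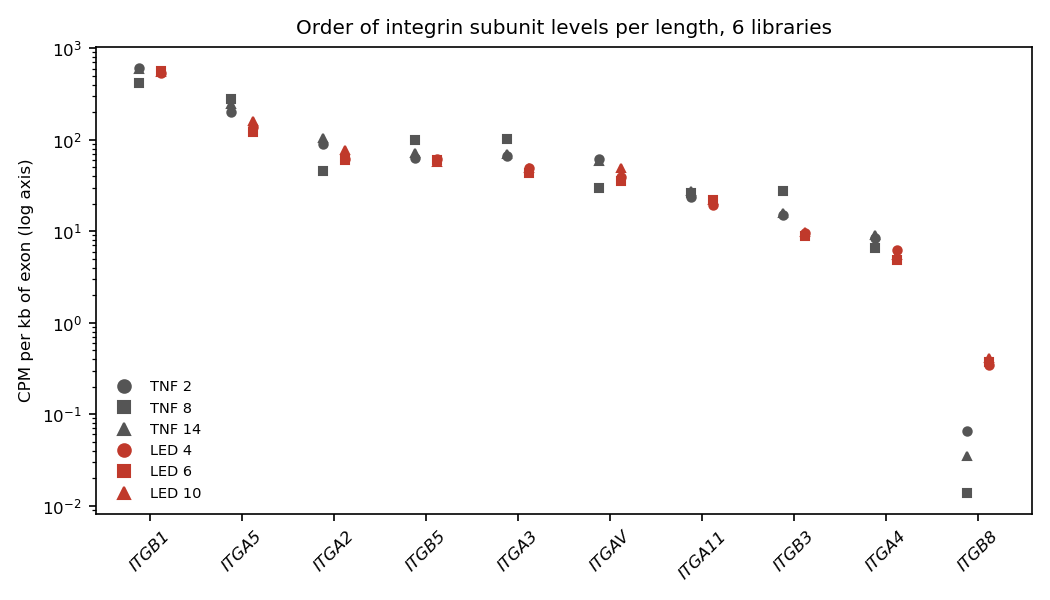
Level per kb of exon of the 10 integrin subunits on a log axis, ordered by their mean over the 6 libraries; each point is a library. ITGB1 lies above all others at 420 to 606 CPM per kb, and ITGB8 lies below all others in both groups.

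The summed level of the alpha chains was lower in every LED library than in any TNF library, as held for 16.2% of all single genes. That of the beta chains overlapped, through TNF replicate 8 alone. Summed over all 18 alpha genes, the level was 500, 526 and 567 CPM per kb with TNF and 347, 326 and 404 with LED. The 8 beta genes summed to 685, 548 and 685 CPM per kb with TNF and 610, 627 and 619 with LED, where the LED libraries fell inside the TNF range. TNF replicate 8 was below every LED library, and the other TNF libraries were above every one. The ratio of the alpha to the beta sum, which does not depend on how libraries are scaled, was 0.840 ± 0.116 with TNF and 0.581 ± 0.0676 with LED (SD, n = 3 each). By library it was 0.730, 0.960 and 0.829 with TNF and 0.570, 0.520 and 0.653 with LED. TNF replicate 8 was the highest, and the other TNF libraries were also above every LED library. How often ratios of other genes separate the groups was not computed. These sums are led by ITGA5 and ITGB1 and are given as a description. ITGA5 held 40.1%, 53.6% and 42.9% of the alpha sum with TNF and 39.5%, 37.4% and 40.1% with LED. Within the beta sum ITGB1 held 76.6% to 88.4% with TNF and 88.1% to 89.0% with LED, and ITGB3 held 2.22%, 5.08% and 2.30% with TNF and 1.58%, 1.41% and 1.60% with LED. ITGB8 went from 0.00577% ± 0.00360 to 0.0608% ± 0.00461 of it, so beta 8 transcripts remained a minor part of the beta sum in every library.

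Partner ratios were computed within each library for 9 known alpha and beta pairs, as the log2 ratio of the estimated counts. The ratio of ITGA5 to ITGB1 was -1.42, -0.40 and -1.12 with TNF and -1.79, -2.02 and -1.59 with LED, a mean difference of -0.82, or -0.53 without TNF replicate 8. Those of ITGA3 and ITGA4 to ITGB1 differed by -0.77 and -0.57, also without overlap between the groups, and by -0.41 and -0.54 without TNF replicate 8. ITGA2, ITGA11 and ITGAV against ITGB1 differed by -0.24, -0.34 and -0.25, with overlapping groups, and by -0.44, -0.15 and -0.41 without that library. ITGAV to ITGB8 was 9.51, 10.7 and 10.3 with TNF and 6.48, 6.20 and 6.57 with LED, a difference of -3.77, or -3.51 without TNF replicate 8. The ratio of ITGAV to ITGB3 was 2.74, 0.81 and 2.61 with TNF and 2.75, 2.72 and 3.03 with LED. Only TNF replicate 8 was far from the rest there, and the difference of 0.78 was 0.16 without it. ITGAV to ITGB5 differed by 0.15, and by -0.38 without TNF replicate 8. In 4 of the 9 ratios the groups did not overlap, all 4 lower with LED. Single genes did so for 32.4%, and no such share was computed for ratios. The ratios of ITGA3, ITGA4 and ITGA5 share the ITGB1 count. That of ITGAV to ITGB8 holds the ITGB8 difference, so the 4 ratios are not separate results. Each of these 4 had p = 0.1 in a two-sided exact permutation test, the smallest that 3 against 3 samples allow, and 0.225 after Benjamini-Hochberg adjustment over the 9, so none passed.

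**Figure D3:**
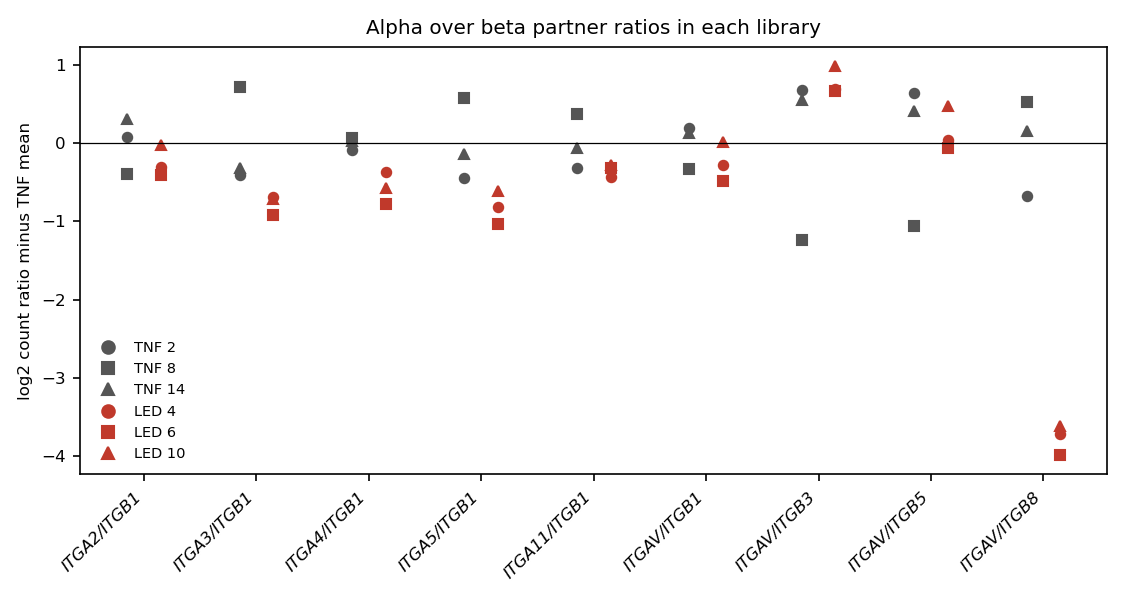
Log2 ratio of alpha to beta counts for 9 known partner pairs in each library, less the mean of the TNF libraries; each point is a library. The LED libraries lie 3.77 lower on average for ITGAV/ITGB8 and below all TNF libraries for ITGA3, ITGA4 and ITGA5 over ITGB1, while TNF replicate 8 is lowest for ITGAV/ITGB3 and ITGAV/ITGB5.

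Of the 16 other integrin subunits 7 were expressed highly enough to be tested, and none passed. The 2 with the lowest p were ITGA6 and ITGA7, which encode laminin-binding chains. ITGA6 had 34.7, 47.6 and 36.4 CPM with TNF and 23.9, 19.4 and 25.9 with LED, without overlap (log2 fold change -0.78 ± 0.20, edgeR adjusted p = 0.0521, DESeq2 0.00718). TNF replicate 8 was the highest, and without it the log2 fold change of ITGA6 was -0.62 (edgeR adjusted p = 0.0711). ITGA7 had 0.412, 0.669 and 0.369 CPM with TNF and 1.02, 3.73 and 0.602 with LED. Its groups overlapped, and LED replicate 6 stood far above the rest (log2 fold change 1.88 ± 0.66, edgeR adjusted p = 0.131, DESeq2 0.0311), and without it the log2 fold change was 0.74. The median of the 7 was -0.18. At an unadjusted p below 0.05 there were 3 of the 7 (ITGA6 and ITGA8 lower, ITGA7 higher), against 11.8% of all genes lower and 10.9% higher. Among subunits of leukocyte integrins, ITGAL, ITGAD and ITGB2 were listed at 0 in every library. ITGAM, ITGAX and ITGB7 reached at most 13, 10 and 32 estimated counts. ITGAE, named after its value was seen, had 5.17, 6.43 and 4.12 CPM with TNF and 6.15, 9.87 and 6.34 with LED (edgeR adjusted p = 0.296).

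**Figure D4:**
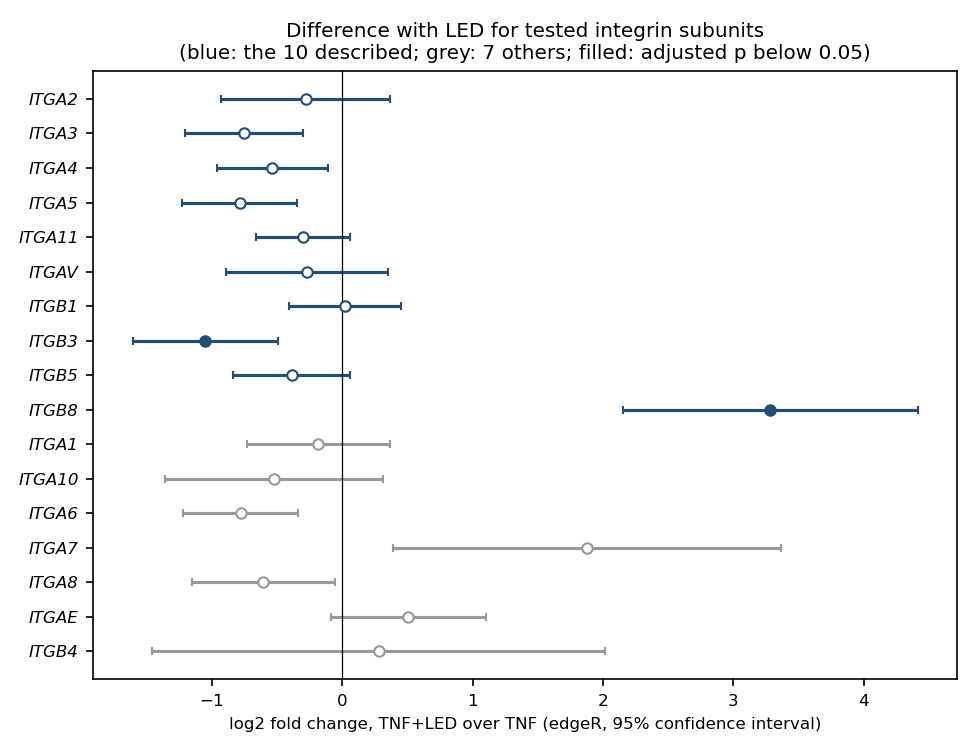
Log2 fold change of TNF plus LED over TNF with its 95% confidence interval (edgeR) for the 10 subunits described (blue) and the 7 other integrin subunits tested (grey); filled points have an adjusted p below 0.05. ITGB3 (-1.05) and ITGB8 (3.28) are filled, and most other points lie between -0.8 and 0.

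Other genes of the adhesion pathway are given by list, each count to be read against the 5.17% of all genes called. Among 24 tested collagen and laminin ligands 1 was called higher, 1 fell and 22 did not pass (8.33% called, median log2 fold change -0.12, against 0.01 for all genes). COL4A1, a basement membrane collagen chain, fell from 3327 ± 79.4 to 2041 ± 242 CPM (SD, n = 3 each, edgeR adjusted p = 0.0475), and lost the call with any 1 library left out (up to 0.217). COL2A1, the cartilage collagen, was the one called higher. It was at 0 in every TNF library and had 0.897, 0.437 and 0.353 CPM with LED (edgeR adjusted p = 0.0172). It passed the filter on low counts through the LED libraries alone, so its call is no support for a rise, and it was not tested with counts divided by 4 or at a mean of at least 1 CPM. The LED mean was 4.63 times the mean floor of 3 fragments per TNF library. COL2A1 missed the threshold when TNF replicate 14 or either of LED replicates 4 and 6 was left out (edgeR adjusted p at most 0.0967). Of 21 RGD-bearing and other cell-binding ligands 2 fell and 19 did not pass (9.52% called, median -0.21). CTGF, a matricellular protein, had 650, 766 and 739 CPM with TNF and 247, 183 and 260 with LED, and kept its call in all 15 alternatives. THBS1, which binds several integrins and CD47, had 747, 1392 and 1051 CPM with TNF and 376, 268 and 369 with LED (log2 fold change -1.66 ± 0.26, edgeR adjusted p = 0.0126). THBS1 lost its call only without LED replicate 6 (0.0732).

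Of 41 tested adaptors and activators that link integrins to actin, 2 rose, 3 fell and 36 did not pass (12.2% called, median -0.22). TLN2, a talin that binds beta tails, rose from 22.2 ± 1.95 to 39.9 ± 5.76 CPM (edgeR adjusted p = 0.0331). NEDD9, a docking protein of the CAS family, fell from 44.4 ± 6.55 to 19.2 ± 3.12 CPM (edgeR adjusted p = 0.0146). PDLIM7, a PDZ and LIM domain protein of actin cables, fell from 256 ± 34.3 to 147 ± 4.84 CPM, and TGFB1I1, a paxillin relative, fell from 151 ± 27.9 to 83.0 ± 5.08 CPM. These 4 missed the threshold when TNF replicate 14 or any LED library was left out (adjusted p at most 0.142), and TLN2 also when TNF replicate 2 was. For all 4 the groups did not overlap, as held for 32.4% of all genes. The 4 were named because they were called in these libraries, so this adds no support. TLN1, the main talin of most cells, had a log2 fold change of -0.26 ± 0.18 and was named after its value was seen.

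Among 27 kinases and signalling enzymes of adhesions 1 fell and 26 did not pass (3.7% called, median -0.19). PTPRA, a receptor phosphatase that activates SRC kinases at adhesions, had 84.8, 105 and 111 CPM with TNF and 53.5, 51.0 and 55.7 with LED (log2 fold change -0.91 ± 0.17, edgeR adjusted p = 0.0255). PTPRA missed the threshold when TNF replicate 14 or any LED library was left out (at most 0.111). None of 20 membrane partners passed (median -0.20). Those with the lowest p were the proteoglycan CSPG4, at a log2 fold change of -0.84 ± 0.23, and the amino acid transporter chain SLC3A2, which binds beta 1 (edgeR adjusted p = 0.0686 and 0.108). SLC3A2 averaged 114 ± 14.8 CPM with TNF and 228 ± 120 with LED (SD). It had 364 CPM in LED replicate 6 and 184 and 137 CPM in LED replicates 4 and 10. None of 21 genes of integrin trafficking passed (median -0.02), led by the endocytic adaptor DAB2 (0.60 ± 0.18, edgeR adjusted p = 0.0821) and the recycling ATPase EHD4 (-0.83 ± 0.29, adjusted p = 0.130). None of 15 genes of alpha V dependent TGF-beta activation passed (median -0.15). There TGFB3, a ligand, had 0.683 ± 0.127 CPM with TNF and 1.36 ± 0.424 CPM with LED (edgeR adjusted p = 0.177). Over these 3 lists DESeq2 called CSPG4, SLC3A2, DAB2 and EHD4 among the named genes. The groups of EHD4 overlapped. Without TNF replicate 8 the edgeR log2 fold changes of these genes were -0.55, 1.06, 0.47 and -0.49, in that order.

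**Figure D5:**
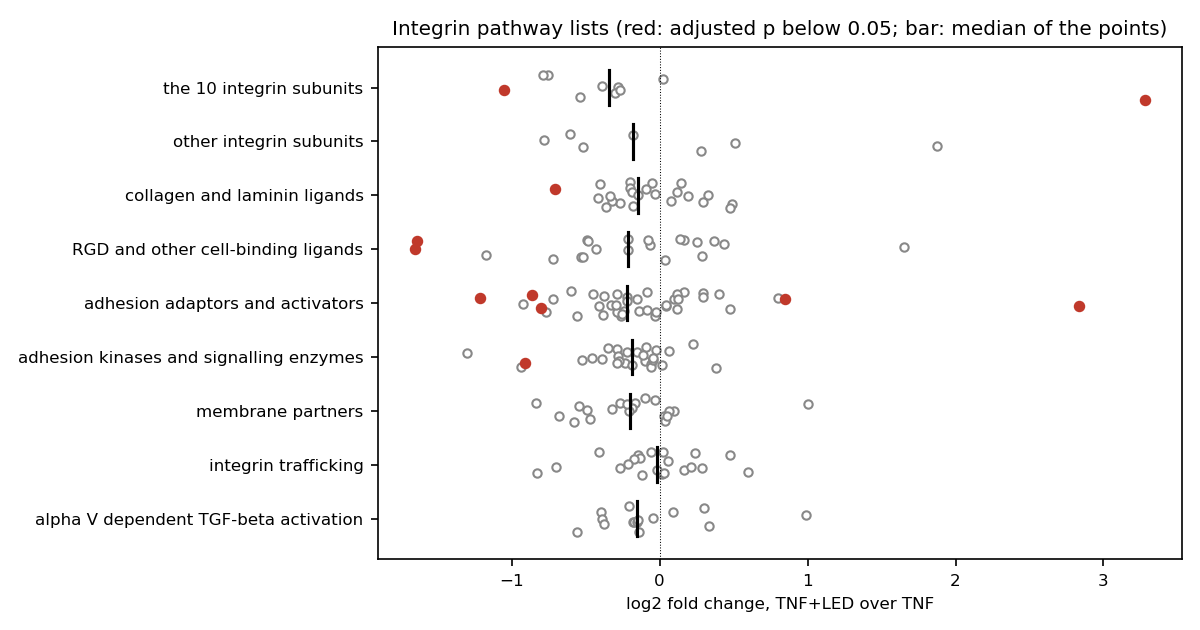
Log2 fold change of TNF plus LED over TNF for each tested gene of the 10 integrin subunits and of 8 lists around them; red points have an adjusted p below 0.05 and the black bar is the median of the points. COL2A1, at 0 in the TNF libraries, is left out, and most medians lie between -0.35 and 0.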

How the data were processed

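Per the labels' protocols, ribosomal RNA was removed from total RNA with probes, and the rest was fragmented by heat and copied with random primers. The deposited table holds the authors' estimated counts per gene symbol, as whole numbers, for 6 libraries. Tools listed without a role in the submitters' processing notes are HISAT2, StringTie, limma, DESeq2 and bcl2fastq 2.0, beside the mouse build mm10. The human build and the strand setting of counting are not given in the sources used here, so reads of antisense neighbours cannot be told apart, and no gene coordinates are printed for the counts. Of values between 1 and 7, 41.8% equalled 4, so a fragment was taken as about 4 units and the floor as 3 fragments (12 units, 0.108 to 0.138 CPM).

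Groups came from the labels alone. All genes were fitted together in edgeR 4.0.16 (R 4.3.3) on the deposited estimated counts: filterByExpr, TMM, robust quasi-likelihood test, two-sided, Benjamini-Hochberg over all genes tested, threshold 0.05. SE is the log2 fold change divided by the square root of F. Exon lengths are unions over protein-coding transcripts of GENCODE 29. On simulated counts for 13605 genes, 33 of 100 genes changed by 1 and 84 of 100 changed by 2 on the log2 scale were called, with 10 false calls. Those counts were drawn independently for each gene, so no simulated library stood apart as TNF replicate 8 did. These rates need not hold for the real libraries. Within groups, chi-square per degree of freedom between libraries was 27.9 to 136, so none was a copy. No label says whether replicates were separate cultures, so p-values measure only how far these libraries differ, perhaps for technical reasons. Sample numbers are not shared between groups. The members, gene lists and alternatives were chosen with earlier results of these data known. All 10 members are named, and from each list the called genes (at most 6, by lowest p) or else the 2 with the lowest p; 2 of these genes are not reported here. Alternatives used limma 3.58.1 (voom) and DESeq2 1.42.0, other scalings and filters, counts divided by 4, and libraries left out.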

Additional observations from a re-analysis of the deposited data

How the results depend on the processing

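Genes called numbered 713, and 591 to 811 with other scalings, other filters, limma-voom or counts divided by 4. There were 1753 with DESeq2, 80 to 737 with 1 library left out, and 1669 without TNF replicate 8 and LED replicate 6 together. Integrin subunits called numbered 2, against 4 with DESeq2 (ITGA3 and ITGA5 added), 3 with no filter on low counts or with counts divided by 4 (ITGA5 added), 1 with limma-voom (ITGB8), 0 to 3 with 1 library left out, and 5 without TNF replicate 8 and LED replicate 6 together (ITGA3, ITGA4 and ITGA5 added). The share of all genes called was 12.7% with DESeq2, 4.65% with limma-voom and 12% without both libraries. Fewer samples were fitted in the omissions, and the cause of the shifts was not tested for any alternative. The sign of ITGB1 turned with library totals only (-0.0203), without TNF replicate 8 (-0.1345) and without both libraries (-0.1428). Its range with 1 library left out was -0.1345 to 0.096. The log2 ratio of ITGAV over ITGB5 turned without TNF replicate 8 (-0.3783) or LED replicate 10 (-0.0144), with a range of -0.3783 to 0.4714. The other 9 subunits kept their direction in all 15 alternatives. Groups did not overlap in 4 of the 9 partner ratios, and in 4 to 6 with 1 library left out. The share for ratios of other genes was not computed. Of 150 refits of single subunits, 7 lost a call and 8 gained one. No paired analysis was possible because the groups share no sample numbers. Depth limits ITGB8, which had about 3 to 17 fragments per TNF library.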
